A study of Mus musculus with 14 samples.

Results

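The nuclear-encoded subunits of the respiratory chain were followed in mouse kidney after ischemia-reperfusion (IR) injury. They were every gene whose symbol begins with Nduf followed by a, b, c, s or v and a digit, is Sdha, Sdhb, Sdhc or Sdhd, or begins with Uqcr, Cox4 to Cox8 or Atp5, with processed copies named -ps left out. The rule found 85 of the 23286 genes in each deposited table: 38 of complex I, 4 of complex II, 8 of complex III, 18 of complex IV and 17 of complex V. These 85 entries carry 84 symbols, because Ndufa13 is listed under 2 Ensembl identifiers, of which the second is named Yjefn3 in the GENCODE annotation and is called the second Ndufa13 entry here. The complex was taken from the symbol alone. Ndufa4 is known as a complex IV subunit, Cox7a2l as a factor that joins complexes into supercomplexes, and Atp5sl (Dmac2 in the GENCODE annotation) as an assembly factor, although their symbols place them elsewhere.

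RNA from whole kidneys of 9-week-old mice was sequenced 5 h after surgery. The 12 libraries formed 4 groups of 3: Control after IR, Control after sham surgery, VE-PTPiKO after IR and VE-PTPiKO after sham surgery. In the genotype labelled VE-PTPiKO the target is VE-PTP, a phosphatase of the endothelial receptor Tie2 that is encoded by Ptprb. The labels give neither the strain, allele and Cre driver of these mice nor whether each library came from a separate animal, so the p-values speak of the spread among libraries, which may be technical. Of the series' other samples, 2 single-cell samples were not analysed here.

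Oxidative phosphorylation runs through 5 complexes of the inner mitochondrial membrane. Complexes I (NADH dehydrogenase) and II (succinate dehydrogenase) pass electrons to ubiquinone, complex III (the cytochrome bc1 complex) passes them to cytochrome c, and complex IV (cytochrome c oxidase) passes them to oxygen. Complex V, the ATP synthase, uses the resulting proton gradient to make ATP. Most subunits are encoded in the nucleus and a few in mitochondrial DNA, which were not analysed here. The proximal tubule, which reabsorbs most of the filtrate, depends on this pathway for its ATP and is the segment best known for injury after ischemia.

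Gene-assigned reads numbered 15427887 to 21296392 per library. Markers of the proximal tubule were at 14075 to 21072 CPM (reads scaled to a common library total, summed over 8 genes) in all 12 libraries, whereas markers of striated muscle summed to 0.27 to 1.55 CPM over 5 genes. Ptprb, the targeted gene, was at 75, 94.8 and 126 CPM in VE-PTPiKO IR kidneys, against 112, 122 and 159 CPM in Control IR kidneys. In sham kidneys it was at 117, 162 and 162 CPM in VE-PTPiKO and at 168, 246 and 177 CPM in Control. The log2 difference, VE-PTPiKO over Control, was -0.43 ± 0.20 in sham kidneys (limma unadjusted p = 0.0529). After IR it was -0.45 ± 0.20 (limma unadjusted p = 0.0413). The sham groups did not overlap and the IR groups did. Ptprb passed in neither (limma adjusted p = 1 in both), where 0 of 16339 tested genes passed. A total over the gene cannot tell if some of its exons were removed.

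Respiratory subunit mRNA was abundant in every library. Together the 85 entries took 2.46%, 2.34% and 2.25% of assigned reads in Control IR kidneys, against 2.62%, 2.13% and 2.61% in Control sham kidneys. In VE-PTPiKO kidneys they took 2.83%, 2.66% and 1.87% after IR, against 2.56%, 2.03% and 2.22% after sham surgery. The IR and sham ranges overlapped in both genotypes, and the highest and lowest of all 12 shares were both VE-PTPiKO IR libraries. Markers of other cells moved with IR: 8 of 8 leukocyte markers were detected and summed to 34.3 to 58.7 CPM in Control IR kidneys, against 21.5 to 27.0 CPM in Control sham kidneys, and to 41.6 to 51.9 CPM in VE-PTPiKO IR kidneys, against 22.4 to 31.0 CPM in VE-PTPiKO sham kidneys. The 3 red cell markers in the tables, of 4 listed, summed to 82.4 to 154 CPM in Control IR kidneys, against 28.8 to 45.2 CPM in Control sham kidneys, and to 45.3 to 127 CPM in VE-PTPiKO IR kidneys, against 29.5 to 42.3 CPM in VE-PTPiKO sham kidneys. Distal tubule and collecting duct markers, 6 of 6 detected, summed to 868 to 962 CPM in Control IR kidneys, against 1025 to 1045 CPM in Control sham kidneys, and to 870 to 934 CPM in VE-PTPiKO IR kidneys, against 925 to 1029 CPM in VE-PTPiKO sham kidneys, where the ranges overlapped. The part of these cells in the subunits' values was not tested. In whole-kidney RNA, fewer cells of a type and less RNA per cell cannot be told apart. Complex V took the largest share of the 5 in each library, from 0.83% to 1.19% of all reads, and complex II the smallest, from 0.167% to 0.223%.

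**Figure D1:**
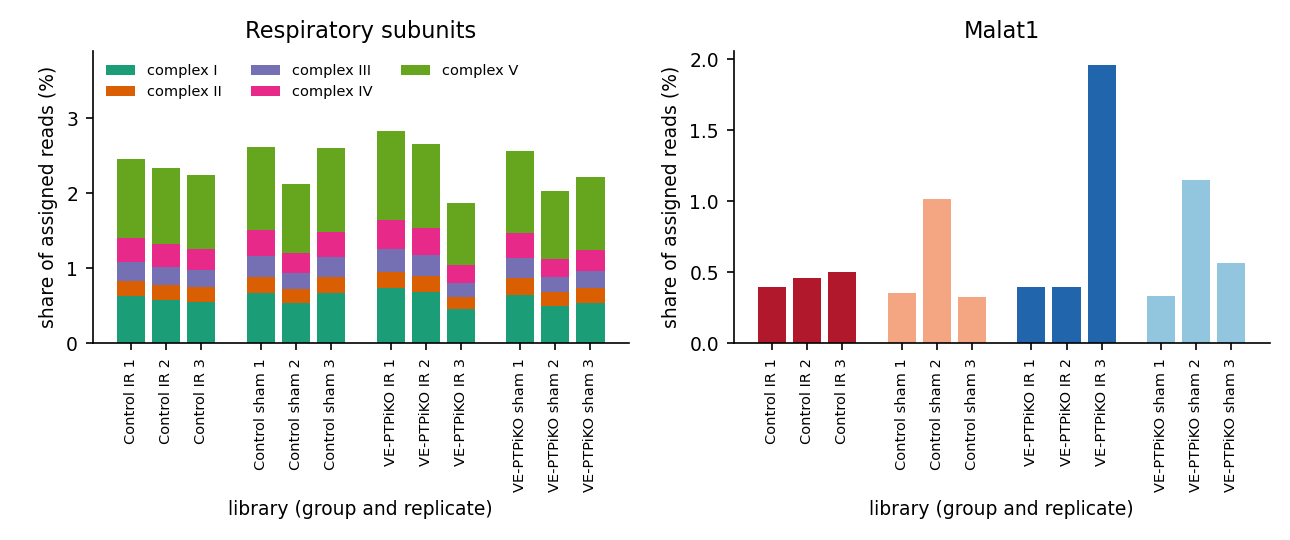
Left, share of assigned reads (%) taken by the respiratory subunits in each of the 12 libraries, stacked by complex. Right, share taken by the nuclear RNA Malat1 in the same libraries. Within each group the bar that is tallest on the right, such as VE-PTPiKO IR replicate 3 at 1.96%, is the shortest on the left, there 1.87%.

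Levels of different genes were compared per length, as reads scaled to transcript length and library total (RPKM, mean of the 12 libraries). The length was the median over a gene's annotated principal transcripts, or its longest transcript where none was marked. Ranks by RPKM depend on that choice. The highest of all was Atp5b, the catalytic beta subunit of the ATP synthase, at 2222 RPKM. Its partner in the catalytic head, Atp5a1, followed at 1227 RPKM, and Cox4i1, the common form of cytochrome oxidase subunit 4, at 1056 RPKM. In complex I the highest was Ndufa4 at 690 RPKM and in complex II Sdhb, the iron-sulfur subunit, at 386 RPKM. In complex III it was Uqcr10, a small subunit, at 597 RPKM. Median levels were 140, 291, 345, 115 and 245 RPKM for complexes I to V. Above 100 RPKM stood 26 of 38 entries of complex I, 4 of 4 of complex II, 7 of 8 of complex III, 9 of 18 of complex IV and 12 of 17 of complex V.

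The spread of levels was widest in complex IV, where 6 of 18 entries lay under 5 RPKM. Cox8c was listed at 0 in all 12 libraries and Cox7b2 reached 0.019 RPKM, and neither had enough reads to be tested. The least abundant tested entries were Cox4i2 at 0.862 RPKM and, in complex V, Atp5g2 at 1.08 RPKM. Atp5g2 is 1 of 3 genes that encode the same mature ring subunit c of the ATP synthase. Of the other two, Atp5g1 stood at 6.00 RPKM and Atp5g3 at 833 RPKM. The lowest entries of the other complexes were Ndufa4l2 at 2.51 RPKM, Sdhc, a membrane anchor of succinate dehydrogenase, at 114 RPKM, and Uqcrb, a small subunit of complex III, at 84.8 RPKM. Sdhc was scaled to 3171 bases, beside 1231 for Sdhd.

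**Figure D2:**
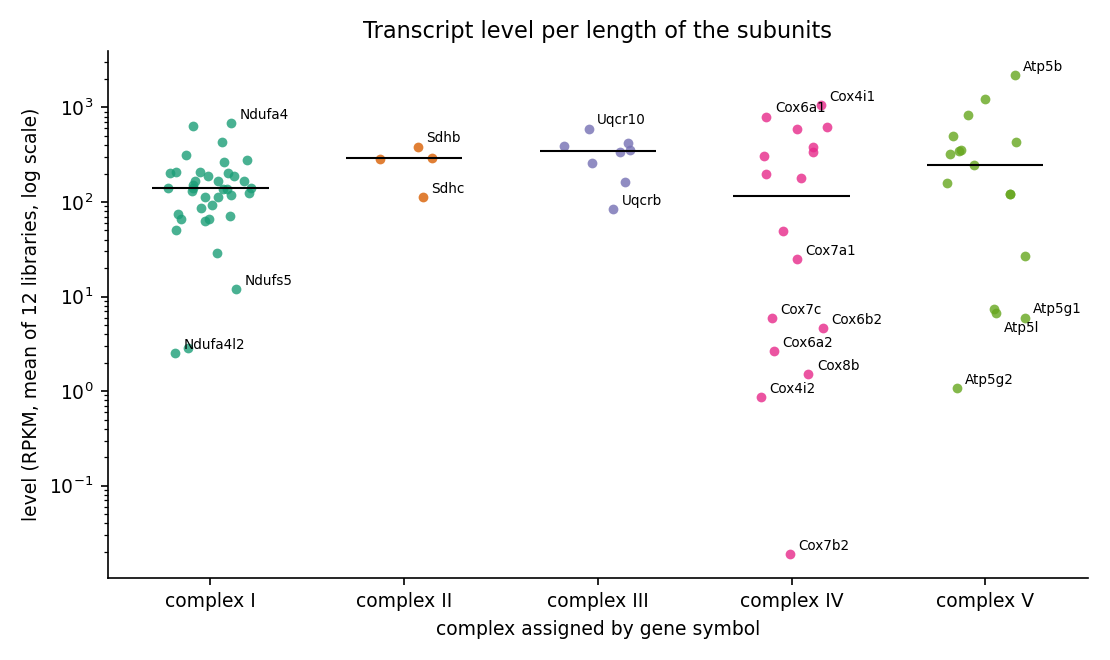
Level per length (RPKM on a log axis, mean of 12 libraries) of each subunit, by complex. Each point is a gene, horizontal lines are the medians of each complex, and Cox8c, at 0, is left out of the drawing. The points span from Cox7b2 at 0.019 RPKM to Atp5b at 2222 RPKM.

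Several complex IV subunits exist as a widely expressed form and a form known mainly from muscle, heart, brown fat, testis or hypoxic cells. In these kidneys the widely expressed form prevailed for all 6 pairs examined. Among the forms known from muscle and heart, Cox7a1 made up the largest part of its pair, 6.68 ± 0.38% of the summed RPKM of Cox7a1 and Cox7a2 in Control IR kidneys and 5.68 ± 0.25% in Control sham kidneys (SD, n = 3 each). In VE-PTPiKO kidneys that share was 6.24 ± 0.71% after IR and 5.81 ± 0.18% after sham surgery. The Cox7a1 share was 6.26% to 7.01% in Control IR kidneys, above the 5.39% to 5.84% of Control sham kidneys, and the 2 ranges overlapped in VE-PTPiKO. This ratio was not tested.

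Cox6a2, the form of subunit 6a known from heart and skeletal muscle, made up 0.199% to 0.443% of its pair with Cox6a1 over the 4 group means. In VE-PTPiKO kidneys its share was 0.332% to 0.458% after IR, above the 0.151% to 0.285% after sham surgery. The 2 ranges overlapped in Control, and this ratio was not tested either. For the remaining pairs the IR and sham ranges overlapped in both genotypes. Cox6b2, known as the testis form of subunit 6b, made up 0.538% to 1.16% of its pair with Cox6b1. Cox4i2, known as the form induced by low oxygen in lung and other cells, was at 0.074% to 0.113% of its pair with Cox4i1. These minor forms rested on few reads, 3 to 89 per library for Cox4i2, Cox6a2, Cox6b2 and Cox8b.

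Cox8b, known from brown fat, heart and muscle, had 34.9 normalized reads (reads divided by a size factor that corrects for library depth) in replicate 2 of the Control sham group, while the 11 remaining libraries had 2.48 to 13.1. The same library was the highest of the 12 in the brown fat genes Ucp1 at 4.23 CPM and Cidea at 3.98 CPM and in the fat genes Adipoq at 3.30 CPM and Plin1 at 2.51 CPM. Summed over 7 fat markers, of which at least 6 were detected in each group, levels were 8.89 to 10.52 CPM in Control IR kidneys and 4.57 to 32.8 CPM in Control sham kidneys. The part of fat in the Cox8b value was not tested.

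Promoter sequence was looked up in RefSeq (GRCm38.p6), from 250 bases before to 50 after each start, and 69 of the member genes had an entry. The letters searched, on both strands, were GCGCATGC for nuclear respiratory factor 1 (NRF1), CCGGAAG for ETS factors such as GABP, AAGATGGC for YY1 and TATAAA for the TATA box. NRF1 and GABP are known as activators of respiratory genes. GCGCATGC was present for 10 of 69 member genes (14.5%) and for 5.1% of the 12780 tested genes with an entry. AAGATGGC was present for 11 members (15.9%) and 4.5% of tested genes, and CCGGAAG for 16 members (23.2%) and 16.9%. TATAAA was present for 7 members (10.1%) and 10.2% of tested genes. A match is a description of the letters, not of a bound site. AAGATGGC was found for 7 genes of complex I and 4 of complex V.

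The following stretches are each the 120 bases before the start. Those of Atp5e (the small epsilon subunit of the ATP synthase), Uqcr11 and Uqcrh (small subunits of complex III) show such matches. Beside them stand 3 complex IV subunits without a match in these 120 bases, 2 of them restricted forms. In the wider window searched, Cox8a had the ETS letters and Cox8b the TATA letters, and Cox6b2 had no match. Capitals mark whole matches to the 4 sets of letters. All lie on the minus strand of GRCm38.p6, at chr2:174464102-174464221 for Atp5e, chr10:80406822-80406941 for Uqcr11, chr4:116075071-116075190 for Uqcrh, chr7:4753095-4753214 for Cox6b2, chr19:7217617-7217736 for Cox8a and chr7:140900447-140900566 for Cox8b. In the GENCODE annotation, 4, 9 and 1 of the 120 bases of Atp5e, Uqcr11 and Uqcrh lie in an exon of some transcript, and 0 of the other 3 stretches.
Atp5e: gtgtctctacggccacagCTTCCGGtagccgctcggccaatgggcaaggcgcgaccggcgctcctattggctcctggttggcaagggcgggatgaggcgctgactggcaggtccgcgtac
Uqcr11: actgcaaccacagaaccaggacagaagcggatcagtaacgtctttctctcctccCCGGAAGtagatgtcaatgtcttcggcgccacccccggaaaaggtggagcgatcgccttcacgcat
Uqcrh: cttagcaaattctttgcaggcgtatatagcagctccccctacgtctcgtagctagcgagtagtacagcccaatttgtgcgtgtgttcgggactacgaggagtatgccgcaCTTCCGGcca
Cox6b2: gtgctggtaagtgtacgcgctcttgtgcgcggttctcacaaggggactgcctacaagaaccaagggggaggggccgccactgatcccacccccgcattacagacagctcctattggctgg
Cox8a: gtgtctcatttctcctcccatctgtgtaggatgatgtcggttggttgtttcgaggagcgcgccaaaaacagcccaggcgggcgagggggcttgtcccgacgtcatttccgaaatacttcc
Cox8b: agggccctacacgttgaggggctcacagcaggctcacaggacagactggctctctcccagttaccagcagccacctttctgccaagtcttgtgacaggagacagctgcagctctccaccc
The ETS letters lie in the Uqcr11 stretch as written and in reverse in those of Atp5e and Uqcrh, and no match lies in the stretches of Cox6b2, Cox8a and Cox8b. Over the 4 group means, Cox8a ranged from 549 to 620 RPKM and Cox8b from 1.08 to 2.59 RPKM.

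In Control kidneys, no respiratory subunit passed the test for a response to IR. Of 83 entries tested, 0 rose and 0 fell (limma on log2(value + 1), adjusted p under 0.05 over all genes tested), where 11.5% of the 16257 genes tested were called, 1216 up and 654 down. An unadjusted p under 0.05 was found for 1 of 83 entries, against 3927 of all 16257 genes. edgeR and DESeq2 called 0 as well. The members' median log2 fold change, IR over sham, was -0.09, beside -0.01 over all genes, and 73 of 83 values were negative. The 95% interval lay within 2-fold in either direction for 76 entries and within 1.5-fold for 72. The 7 entries with wider intervals were Ndufa4l2, Cox4i2, Cox6a2, Cox6b2, Cox8b, Atp5g2 and Atp5l, none of which exceeded 117 normalized reads in a Control library. Without Control sham replicate 2 the median was -0.21 and 1 entry was called, Ndufb8, an accessory subunit of complex I, at -0.46 ± 0.13 (log2 ± SE, adjusted p = 0.0432), where 2010 of 16231 genes were called.

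The core subunits of complexes I and II, which carry the flavin and iron-sulfur centres, did not pass in Control kidneys, with intervals that lay within 1.5-fold of the sham level for the entries named next, except Ndufb8. Ndufs1, the largest iron-sulfur subunit of complex I, had 6571, 5945 and 6036 normalized reads in Control IR kidneys, against 6823, 6426 and 7017 in Control sham kidneys, a log2 difference of -0.12 ± 0.10. The groups overlapped. Ndufv1, which binds NADH, was at -0.13 ± 0.14. Sdha, the flavoprotein that oxidises succinate, had 15472, 14199 and 14684 reads after IR and 15383, 15306 and 16525 after sham surgery (-0.09 ± 0.11). Sdhb was at -0.18 ± 0.13, with 8356, 7346 and 6572 reads after IR and 9122, 7414 and 8685 after sham surgery. Ndufb8 had 8501, 6856 and 6576 reads after IR, against 10058, 6358 and 10006 after sham surgery. Its lowest value was Control sham replicate 2, and the groups overlapped.

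Named subunits of complexes III, IV and V did not pass in Control kidneys either. Uqcrc1 and Uqcrc2, the core proteins of complex III, were at -0.17 ± 0.13 and -0.11 ± 0.13, and Uqcrfs1, the Rieske iron-sulfur protein, at -0.00 ± 0.14. Cox4i1 had 15620, 13879 and 12585 normalized reads after IR, against 17021, 11695 and 16318 after sham surgery (-0.08 ± 0.16). Cox5a, another subunit around the catalytic core, was at 0.06 ± 0.14. In complex V, Atp5b had 79634, 74536 and 68820 reads after IR, against 83446, 68577 and 87167 after sham surgery (-0.09 ± 0.16). All 3 IR values lay between the lowest and the highest sham value. Atp5a1 was at -0.03 ± 0.15 and Atp5c1, the central stalk subunit gamma, at -0.09 ± 0.14.

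The lowest fold changes in Control kidneys were those of minor forms and of Atp5sl. Cox8b was at -0.72 ± 0.56 and Ndufa4l2, a paralog of Ndufa4 known as a hypoxia target, at -0.61 ± 0.28 (adjusted p = 0.214). Ndufa4l2 had 25.6, 32.0 and 38.8 normalized reads after IR, against 64.1, 42.8 and 42.6 after sham surgery. All 3 IR values lay below all 3 sham values. Atp5sl had 1165, 1029 and 952 reads after IR, against 1311, 1279 and 1249 after sham surgery. Its groups did not overlap either, the difference was -0.29 ± 0.11, and it did not pass (unadjusted p = 0.0241, adjusted p = 0.129). In the authors' deposited table Atp5sl was the only respiratory entry marked significant, at a log2 fold change of -0.28 with an adjusted p of 0.042. There, 2886 of 13664 genes had an adjusted p under 0.05. Ndufa4l2 and Atp5sl were the 2 entries whose IR libraries all lay below the sham libraries, where 13.4% of all tested genes did so, and 0 entries lay above, where 16% of all tested genes did.

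The highest fold changes in Control kidneys were 0.44 ± 0.41 for Cox6a2, 0.16 ± 0.20 for Ndufs5, a small subunit of complex I, and 0.14 ± 0.18 for Cox7a1. Cox5a, Cox7c and Ndufb2 followed at 0.06, 0.05 and 0.03. Cox6a2 had 28.8, 24.9 and 70.0 normalized reads after IR, against 39.3, 23.6 and 21.3 after sham surgery, so its value rested on Control IR replicate 3. At the low end Cox6b2 was at -0.55 ± 0.33, the second Ndufa13 entry at -0.26 ± 0.25 and Ndufb8 at -0.24 ± 0.18.

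In VE-PTPiKO kidneys 0 of 83 entries were called after IR, where 2.71% of the 16401 genes tested were, 315 up and 130 down. An unadjusted p under 0.05 was found for 2 entries, against 2485 of all genes, and edgeR and DESeq2 called 0. The members' median log2 fold change was 0.10, beside -0.01 over all genes, and 64 of 83 values were positive. The standard errors were larger than in Control kidneys, with a median of 0.23 beside 0.14, and 30 intervals lay within 1.5-fold, although 76 lay within 2-fold. The values moved most with VE-PTPiKO IR replicate 3. Without it the median was 0.34 and 2 entries were called: Atp5e at 0.60 ± 0.17 (adjusted p = 0.0499) and Ndufb2, an accessory subunit of complex I, at 0.57 ± 0.15 (adjusted p = 0.0398). In that fit 1925 of 16334 genes were called. Without VE-PTPiKO IR replicate 1 the median was -0.05, and without VE-PTPiKO sham replicate 2 it was -0.01.

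The core subunits named for Control kidneys did not pass here either when all libraries were kept, and their log2 fold changes lay between -0.09 and 0.17, apart from Sdha. Atp5b had 85471, 81433 and 58447 normalized reads in VE-PTPiKO IR kidneys, against 79757, 67010 and 76026 in VE-PTPiKO sham kidneys (0.00 ± 0.21). Cox4i1 had 17800, 16951 and 9936 reads after IR, against 14922, 10933 and 12938 after sham surgery (0.17 ± 0.24). In both genes replicates 1 and 2 of the IR group were above, and replicate 3 below, all sham libraries. Ndufs1 was at -0.08 ± 0.15, Ndufv1 at -0.01 ± 0.20, Uqcrc1 at -0.09 ± 0.20, Uqcrc2 at 0.07 ± 0.21, Uqcrfs1 at 0.06 ± 0.24, Cox5a at 0.08 ± 0.23, Atp5a1 at -0.03 ± 0.19 and Atp5c1 at 0.17 ± 0.22.

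Sdha stood apart from the other core subunits in its order of libraries. It had 14075, 14468 and 13370 normalized reads in VE-PTPiKO IR kidneys, against 16317, 15667 and 17910 in VE-PTPiKO sham kidneys. All IR values lay below all sham values, the difference was -0.25 ± 0.14, and it did not pass (adjusted p = 0.443). Sdhb was at 0.03 ± 0.20 in the same kidneys, so these subunits of complex II did not share a sign. Atp5sl was at -0.26 ± 0.13 (adjusted p = 0.379), Ndufa4l2 at -0.48 ± 0.26 (adjusted p = 0.449) and Cox6b2 at -0.72 ± 0.27 (adjusted p = 0.234), each with non-overlapping groups. These 4 entries lay below the sham libraries, where 10% of all tested genes did, and 0 lay above, where 10.6% of all tested genes did.

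Cox6a2 had the highest fold change in VE-PTPiKO kidneys, 1.09 ± 0.44 (unadjusted p = 0.0368, adjusted p = 0.281). It had 56.1, 39.2 and 22.9 normalized reads after IR, against 29.0, 11.3 and 14.5 after sham surgery, and the groups overlapped. The next were Atp5g1 at 0.33 ± 0.29, Ndufa1, a small membrane subunit of complex I, at 0.26 ± 0.19, Cox7a1 at 0.26 ± 0.27, Ndufb2 at 0.25 ± 0.26 and Atp5e at 0.24 ± 0.29. Ndufs5 at -0.29 ± 0.34 and Atp5s, known as coupling factor B, at -0.24 ± 0.21 completed the low end.

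**Figure D3:**
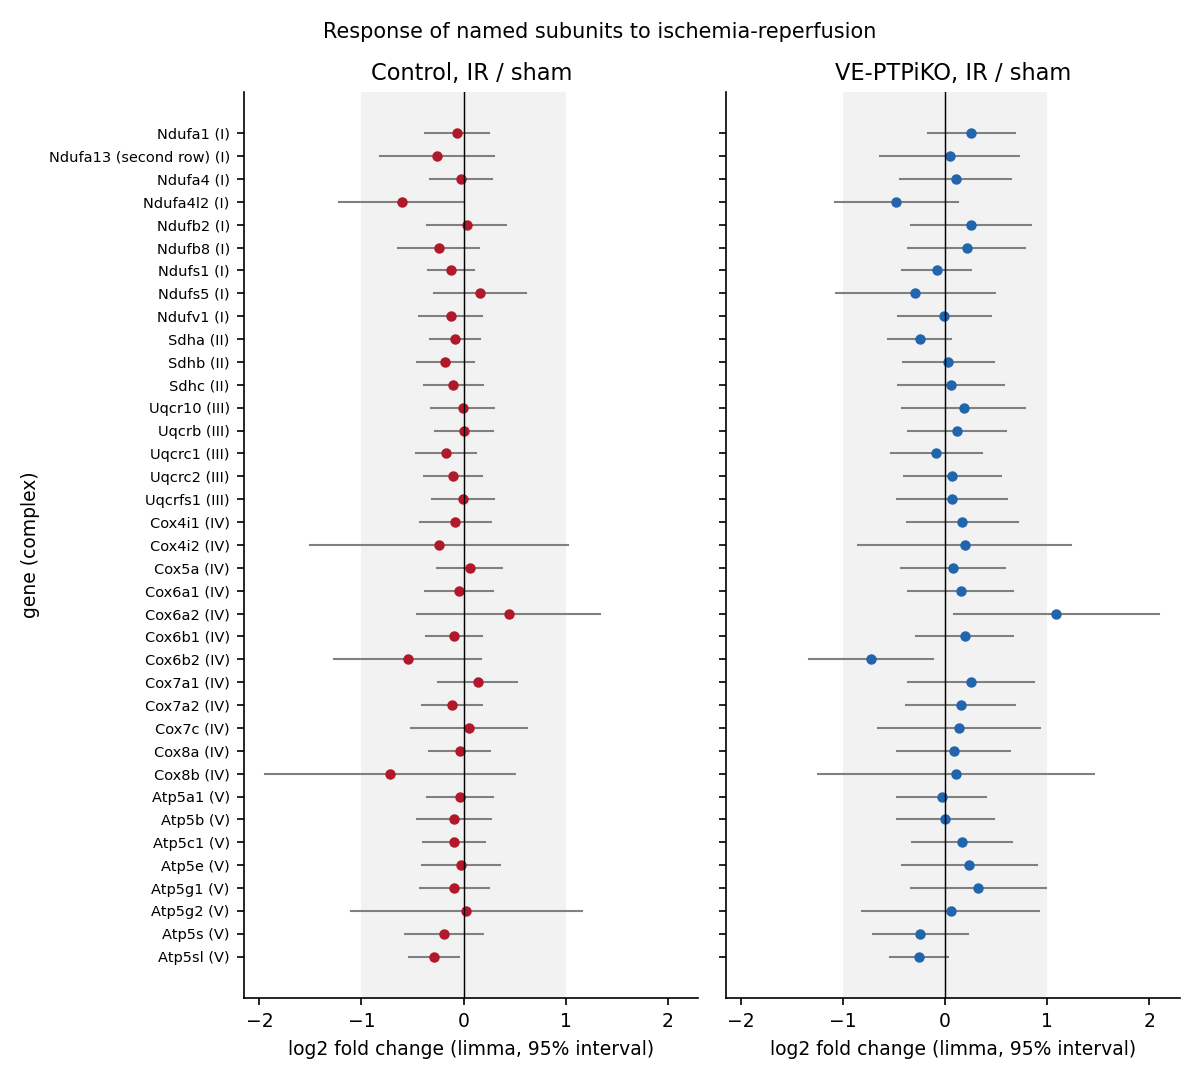
Log2 fold change, IR over sham, of the named subunits in Control (left) and VE-PTPiKO kidneys (right), with 95% limma intervals as lines (n = 3 per group) and the range within 2-fold shaded. Core subunits cluster near 0 in both, and the widest intervals belong to forms with few reads, such as Cox8b at -0.72 in Control kidneys.

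Between genotypes, no entry passed the test. In sham kidneys 0 of 83 were called, where 0% of 16339 tested genes were, and the members' median log2 difference, VE-PTPiKO over Control, was -0.14, beside 0.01 over all genes, with 8 positive values. After IR 0 of 83 were called, where 0% of all tested genes were, and the median was 0.04, beside -0.02, with 54 positive values. No entry had an unadjusted p under 0.05 in either state, against 267 of all genes in sham and 709 after IR. DESeq2 called 1 gene in each state, not a respiratory one, and edgeR 0. In sham kidneys Cox4i1 had 14922, 10933 and 12938 normalized reads in VE-PTPiKO, against 17021, 11695 and 16318 in Control (-0.21 ± 0.22). The groups overlapped. Intervals within 1.5-fold were reached by 38 entries in sham kidneys and by 67 after IR. Without VE-PTPiKO IR replicate 3 the median after IR was 0.26 and 12 of 83 entries had an unadjusted p under 0.05, against 1455 of 16284 genes, still with 0 called. Without the 3 libraries highest in the nuclear RNA Malat1, 46 of 83 entries had an unadjusted p under 0.05, against 2026 of 16234 genes. There 81 values were positive and 0 were called. Of the IR libraries, both fits dropped only VE-PTPiKO IR replicate 3, the lowest of its group for 77 entries. Control IR kept replicate 3, its lowest for 71 entries, so a low library was removed from 1 side only. In both fits the median was 0.26 and 81 values were positive. The second fit also left out Control sham replicate 2 and VE-PTPiKO sham replicate 2, which enter the shared estimate of the spread. What this added to the 46 entries was not tested. The subunits also deviated together within a library, so their p-values are not independent.

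The response to IR was then compared between genotypes by the interaction term, VE-PTPiKO response minus Control response. It called 0 of 83 entries, where 0% of 16339 tested genes were called (432 with an unadjusted p under 0.05; edgeR and DESeq2 also called 0). The members' median difference of responses was 0.18 on the log2 scale, beside -0.01 over all genes, and 77 of 83 values were positive. Exceptions with a negative value were Ndufs5, Sdha, Cox6b2, Atp5a1, Atp5j and Atp5s. The precision was low: 11 intervals lay within 1.5-fold and 68 within 2-fold. Without VE-PTPiKO IR replicate 3 the median was 0.42, and without VE-PTPiKO IR replicate 1 it was 0.05.

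The size of the median fold change moved with a few libraries in which the subunits deviated together. Its sign changed when 1 library was left out for IR over sham in VE-PTPiKO kidneys and for the genotypes after IR, and not in the other 3 comparisons. Each library's subunits were set against the mean of their own group. The median deviation on the log2 scale ran from -0.47 in VE-PTPiKO IR replicate 3 to 0.28 in VE-PTPiKO IR replicate 1, while the median over all genes stayed between -0.01 and 0.02. In VE-PTPiKO IR replicate 3 complexes I to V were at -0.45, -0.45, -0.52, -0.53 and -0.37. Control sham replicate 2 was at -0.25 and VE-PTPiKO sham replicate 2 at -0.21 over all subunits.

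These 3 libraries also had the highest shares of Malat1, a long RNA retained in the nucleus. It took 1.96% of reads in VE-PTPiKO IR replicate 3, 1.15% in VE-PTPiKO sham replicate 2 and 1.02% in Control sham replicate 2. The remaining 9 libraries were at 0.327% to 0.564%. In all 4 groups the library highest in Malat1 was the lowest in the subunits' share of reads. Of the 83 tested entries, 62 (74.7%) were lowest in that library in all 4 groups, and 10.3% of all 16339 tested genes were. In VE-PTPiKO IR replicate 3 alone, 77 entries (92.8%) had the lowest value of their group, against 39.5% of all genes.

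Subunit transcripts are short, with a median length of 785 bases beside 2795 for all tested genes. Across genes, Spearman's rho between a gene's deviation and its transcript length was 0.39 in VE-PTPiKO IR replicate 3 and -0.36 in VE-PTPiKO IR replicate 1, which describes these libraries and treats no gene as a replicate. In Control sham replicate 2 it was 0.35 and in VE-PTPiKO sham replicate 2 it was 0.19. In VE-PTPiKO sham replicate 3 rho was 0.20, although the subunits' median deviation there was 0.01. In Control IR replicate 3 rho was 0.24 and that deviation -0.12. Among the subunits alone, rho was 0.12 in VE-PTPiKO IR replicate 3, 0.12 in Control sham replicate 2 and 0.10 in VE-PTPiKO sham replicate 2. When a trend on transcript length was taken out of each library, the median fold change was -0.10 in Control and -0.02 in VE-PTPiKO kidneys, and the median interaction was 0.07. Without the 3 libraries the medians were -0.21, 0.23 and 0.43. No entry was called in VE-PTPiKO kidneys or by the interaction under either choice. In Control kidneys 1, Ndufb8, was called without the 3, of which only Control sham replicate 2 is a Control library. The parts of transcript length and of the nuclear RNA share in the subunits' values were not tested.

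**Figure D4:**
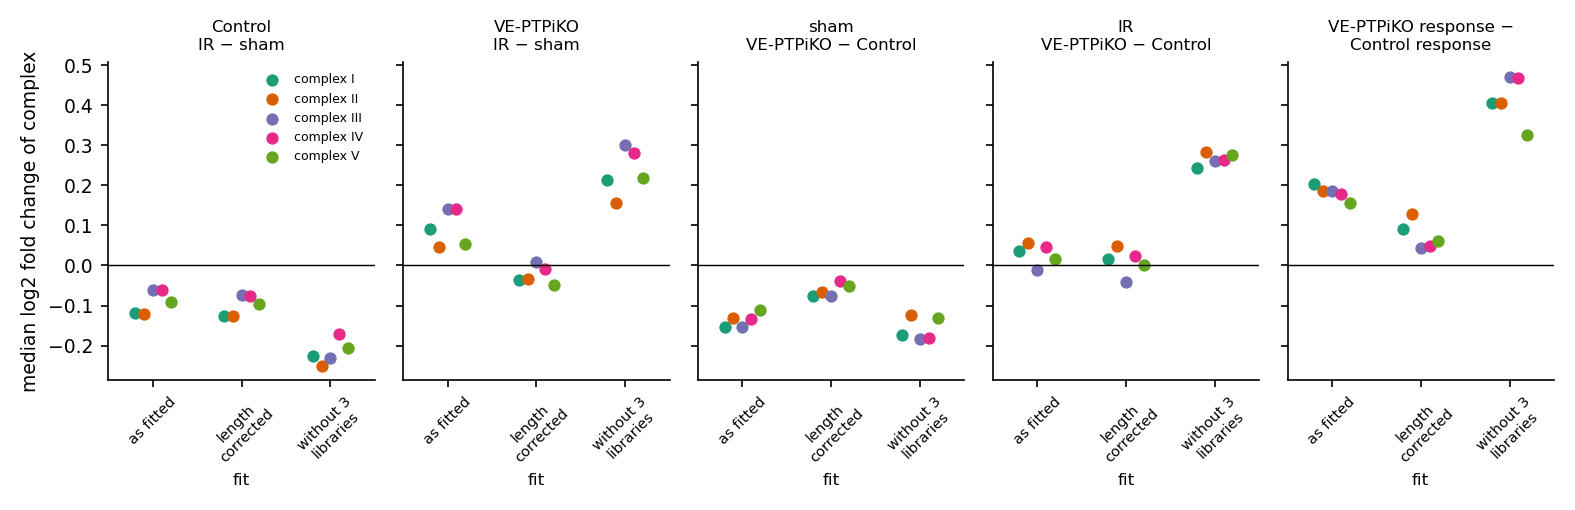
Median log2 fold change or difference of each complex in the 5 comparisons (panels), from the fit of all libraries, after correction for transcript length, and without the 3 libraries highest in Malat1. Within a fit the 5 complexes lie close together, while the VE-PTPiKO IR over sham medians move from 0.05 to 0.14 as fitted to -0.05 to 0.01 after the length correction.

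Atp5l, subunit g of the ATP synthase, ran the other way. It had 33.1, 52.5 and 59.6 normalized reads in Control IR kidneys, against 38.2, 117 and 29.8 in Control sham kidneys. In VE-PTPiKO kidneys it had 42.6, 59.8 and 139 reads after IR, against 38.9, 102 and 55.9 after sham surgery. Its highest value in each of the 4 groups was the library highest in Malat1. Atp5g2 showed the same order in 4 of 4 groups and Cox4i2 in 3 of 4, where 7.3% and 18.8% of all tested genes did so in 4 and in 3 groups. Cox4i2 and Atp5g2 had no more than 22.9 normalized reads in any library. The GENCODE annotation also lists 2 processed copies named after Atp5l, and the level of Atp5l, 6.68 RPKM, lay far under the 245 RPKM median of complex V. The sources used here do not say how reads shared with such copies were counted, so the values of Atp5l, and of Uqcrh, Atp5c1 and Atp5k, which have named copies too, are uncertain. Copies under other names were not looked for. The low values of Cox7c (5.92 RPKM), Ndufs5 (12.0 RPKM), Atp5g1 (6.00 RPKM) and Atp5g2 (1.08 RPKM) may therefore be uncertain too.

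**Figure D5:**
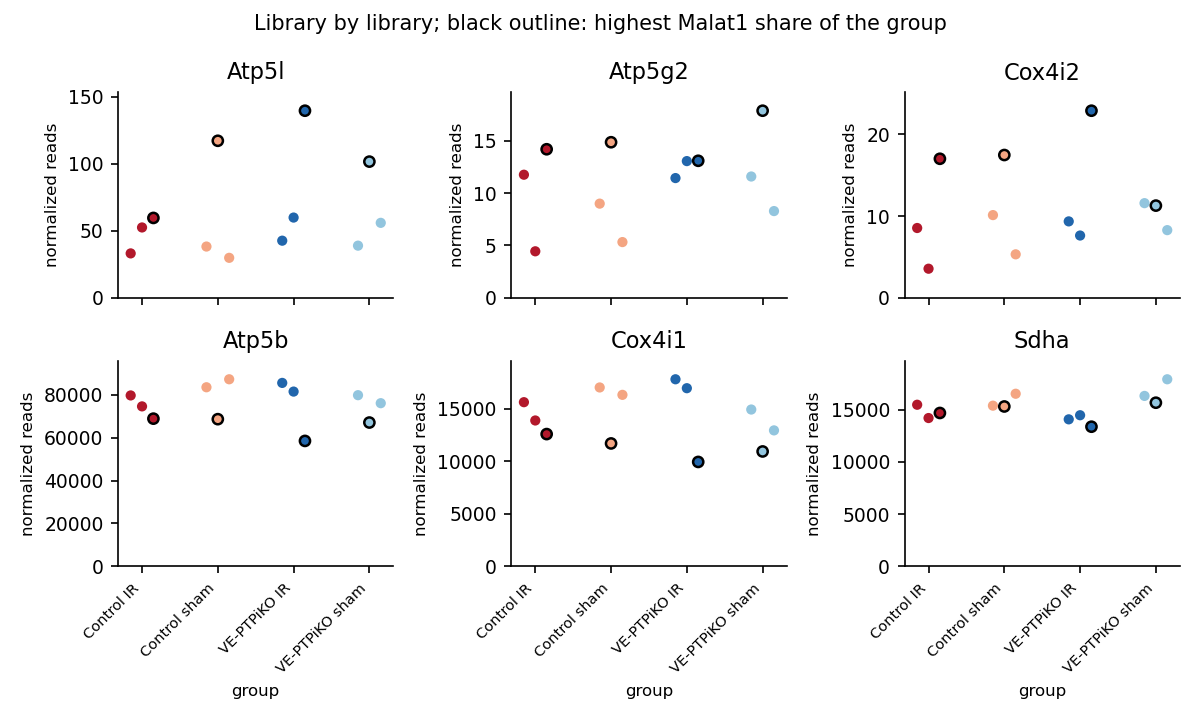
Normalized reads in each of the 12 libraries for Atp5l, Atp5g2 and Cox4i2 (top) and for Atp5b, Cox4i1 and Sdha (bottom), by group, on axes that start at 0. Black outlines mark the library with the highest Malat1 share of its group. In VE-PTPiKO IR kidneys that library is the highest of its group for Atp5l (139) and the lowest for Atp5b (58447).

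The counting may also mix genes that overlap, because its use of strand is not given. Of the exonic bases of Atp5o, 47.9% overlap another gene, and of those of Ndufb6, Ndufa13, Uqcrc2 and Ndufb9, 39.0%, 30.0%, 19.7% and 19.5% do. None of these genes was called in any comparison.

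Genes that build or feed the chain were counted from 4 further lists. Of 50 tested assembly factors and partner proteins, 0 rose and 0 fell in all 5 comparisons, with a median of -0.02 in Control and 0.10 in VE-PTPiKO kidneys after IR. Over all genes tested, 11.5% were called in Control kidneys, 2.71% in VE-PTPiKO kidneys, and 0% between genotypes or by the interaction. Among 18 mobile carriers and electron transfer flavoprotein genes, 1 fell in Control kidneys and 0 in VE-PTPiKO kidneys. It was Etfdh, which passes electrons from fatty acid oxidation to ubiquinone. Etfdh had 4989, 4011 and 4262 normalized reads in Control IR kidneys, against 5956, 5802 and 7056 in Control sham kidneys (-0.50 ± 0.12, adjusted p = 0.0236). The call held in 3 of 6 fits that left out a library and was lost without Control IR replicate 2 or 3 (adjusted p = 0.146 and 0.0879) or Control sham replicate 3 (adjusted p = 0.0933). In VE-PTPiKO kidneys it was at -0.49 ± 0.15 (adjusted p = 0.157), and its interaction was 0.01 ± 0.19. Etfdh groups did not overlap in either genotype.

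Among 23 genes of the tricarboxylic acid cycle and pyruvate dehydrogenase, 3 fell in Control and 1 in VE-PTPiKO kidneys, and 0 rose, where 11.5% and 2.71% of all genes were called in those genotypes. All 3 were pyruvate dehydrogenase kinases, which switch that enzyme off and so limit the entry of pyruvate into the cycle. Pdk2 had 3532, 3121 and 2877 normalized reads in Control IR kidneys, against 6795, 5867 and 5147 in Control sham kidneys, 1.86-fold lower (adjusted p = 0.00112), and was called whichever library was left out. In VE-PTPiKO kidneys Pdk2 had 2868, 3136 and 3770 reads after IR, against 6031, 6321 and 7044 after sham surgery, 1.99-fold lower (adjusted p = 0.00895). That call was lost without VE-PTPiKO sham replicate 3 (adjusted p = 0.0686) and without VE-PTPiKO IR replicate 2 (adjusted p = 0.0596). In both genotypes the groups did not overlap. Pdk1 fell by 0.42 ± 0.10 and Pdk4 by 0.89 ± 0.25 on the log2 scale in Control kidneys (adjusted p = 0.0236 and 0.0408). Pdk1 groups did not overlap and Pdk4 groups did. Both calls held in 2 of 6 fits that left out a library. Pdk1 was lost without any 1 of the Control IR replicates (adjusted p = 0.0854, 0.101 and 0.0858) or Control sham replicate 1 (adjusted p = 0.0532). Pdk4 was lost without Control IR replicate 2 or 3 (adjusted p = 0.19 and 0.127) or Control sham replicate 2 or 3 (adjusted p = 0.107 and 0.149), and also with edgeR (0.0512), DESeq2 (0.113) and a model of all 12 libraries (0.116). In VE-PTPiKO kidneys Pdk1 was at -0.35 ± 0.14 and Pdk4 at -0.57 ± 0.32 (adjusted p = 0.263 and 0.451). Pdk1 groups did not overlap there either, and Pdk4 groups did.

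Of 14 regulators of respiratory genes, 3 rose and 1 fell in Control kidneys, and 0 rose and 1 fell in VE-PTPiKO kidneys, beside the same shares over all genes. Esrrb, an estrogen-related receptor, had 546, 452 and 698 normalized reads in Control IR kidneys, against 1276, 1506 and 1234 in Control sham kidneys, 2.39-fold lower (adjusted p = 0.000483), and was called whichever library was left out. In VE-PTPiKO kidneys it had 425, 689 and 621 reads after IR, against 1204, 1515 and 1392 after sham surgery, 2.40-fold lower (adjusted p = 0.0112). That call was lost without VE-PTPiKO sham replicate 2 or 3 (adjusted p = 0.0615 and 0.0753). In both genotypes all IR libraries lay below all sham libraries. Hif1a, the oxygen-regulated factor that induces Ndufa4l2 and Cox4i2 in other cells, rose in Control kidneys by 0.49 ± 0.11 (adjusted p = 0.013). Pprc1, a coactivator of NRF1, rose by 0.72 ± 0.16 (adjusted p = 0.0141) and Gabpb1, the beta subunit of GABP, by 0.47 ± 0.13 (adjusted p = 0.0357). In VE-PTPiKO kidneys Hif1a was at 0.46 ± 0.14 (adjusted p = 0.134), Gabpb1 at 0.31 ± 0.14 (adjusted p = 0.349) and Pprc1 at 0.21 ± 0.27 (adjusted p = 0.792). All IR libraries lay above all sham libraries for the first 2 of these and not for Pprc1. Hif1a was lost without Control IR replicate 2 or 3 (adjusted p = 0.0886 and 0.0619), and Pprc1 without Control IR replicate 2 or Control sham replicate 3 (adjusted p = 0.0869 and 0.0552). Gabpb1 held in 1 of 6 fits that left out a library, the one without Control sham replicate 2, and reached adjusted p = 0.19 without Control IR replicate 2. In a model of all 12 libraries Pprc1 was at adjusted p = 0.081, and with the replicate block Gabpb1 was at 0.0576. Ppargc1a, a coactivator known to drive mitochondrial biogenesis, was at -0.40 ± 0.13 in Control kidneys (adjusted p = 0.0712) and at -0.53 ± 0.14 in VE-PTPiKO kidneys (adjusted p = 0.0981). It had 1253, 1017 and 1263 normalized reads in Control IR kidneys, against 1443, 1785 and 1453 in Control sham kidneys, and the groups did not overlap. They did not overlap in VE-PTPiKO kidneys either. Of 6 fits that left out a library, Ppargc1a was called in 0 in Control and in 1 in VE-PTPiKO kidneys (limma adjusted p = 0.0459). None of these 5 regulators passed between genotypes or by the interaction term, where each had an adjusted p of at least 0.999.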

How the data were processed

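Bulk RNA-seq of 12 mouse kidney libraries was analysed from 2 deposited tables, 1 per genotype. Per the submitters' processing notes the authors used FastQC, STAR, HTSeq and DESeq2 on mm10, with no versions given. In the deposited tables each library's signal is a read count over its size factor, as the values showed: 100.0% gave whole reads within 0.02. The deposited log2 fold changes, the Wald score and the adjusted p-values are the authors' own, per the file headers. Each table held 23493 lines, of which 23286 genes were kept after repeated identifiers. Every library column matched a sample. The members and the lists were chosen with earlier results of these data known, and lengths come from the GENCODE annotation.

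IR was tested against sham within each table with limma 3.58.1 (R 4.3.3) on log2(value + 1) with a trend, for genes whose mean value was 1 or more. The threshold was a Benjamini-Hochberg adjusted p under 0.05 across the genes tested. Genotype contrasts and the interaction used the recovered reads, scaled over all 12 libraries by median of ratios, and so did the normalized reads printed as levels. The tables had been normalized separately. Counts of non-overlapping groups used the deposited values. Named members were the 6 highest and 6 lowest fold changes in each genotype, core subunits (of which 1 is not reported here), paralog pairs and the extremes of level. Atp5l was chosen after its values were seen, as were Atp5g3, Uqcr11, Uqcrh and the overlapping genes. From the lists, genes past the threshold and Ppargc1a were named. Alternatives were edgeR 4.0.16, DESeq2 1.42.0, TMM, other filters and pseudocounts, a replicate block, a length correction and leaving out libraries. The fit was tested on simulated data. Depth limits genes with few reads, and the precision of a value is given by its standard error over 3 libraries.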

Additional observations from a re-analysis of the deposited data

How the results depend on the processing

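Under the alternatives other than leaving out libraries, 0 members were called in all 5 comparisons. Without the 3 libraries highest in Malat1, 1 member was called in Control kidneys and 0 elsewhere. In Control kidneys that fit left out only Control sham replicate 2, so it is also 1 of the fits that follow. Leaving out 1 library gave 0 to 1 members called in Control, 0 to 2 in VE-PTPiKO kidneys and 0 in the other 3 comparisons. The members' median ranged from -0.210 to -0.030 in Control, -0.047 to 0.343 in VE-PTPiKO, -0.275 to -0.050 between genotypes in sham, -0.107 to 0.264 after IR and 0.049 to 0.417 for the interaction. Genes called in Control kidneys ranged from 862 to 2010 and in VE-PTPiKO kidneys from 126 to 1925, against 0 to 1 between genotypes in sham, 0 after IR and 0 to 1 for the interaction.

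For VE-PTPiKO IR versus sham, 1013 genes were called by DESeq2, 822 after the length correction, 853 without the 3 libraries and 1019 in a model of all 12, against 445. Between genotypes, DESeq2 called 1 gene in sham and 1 after IR, and 1 was called in sham without the 3 libraries. The causes were not tested. The labels do not say whether replicate numbers pair the libraries. Correlations of same-numbered deviations ran from -0.2 to 0.301, which cannot settle it with 3 libraries per group. With the replicate block 1805 genes were called in Control and 604 in VE-PTPiKO kidneys, and 0 members in either. The 38 named members included Cox8c, which was not tested. Of 3251 values of the others, 3140 stayed within the standard error, 107 moved further, 4 became called and 0 called values reversed. Among the 4, the same fit of Ndufb8 was counted under both settings that leave out Control sham replicate 2.

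The alternatives for the named genes of the pathway lists were added after seeing the data. Depth limits members with few reads: for 7 of 83 in each genotype a 2-fold change lay within the 95% interval.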
